A study of Mus musculus with 2 samples.

Results

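The genes described here encode the proteins of the cytosolic ribosome, the particle that reads messenger RNA outside mitochondria. They were the protein-coding genes on chromosomes 1 to 19 whose symbol is Rpl or Rps followed by a number, with at most 1 further letter and 1 further digit. The rule found 75 of the 20807 protein-coding genes on these chromosomes, 45 of the large subunit (Rpl) and 30 of the small subunit (Rps). Rpl10, Rpl36a, Rpl39 and Rps4x lie on chromosome X and were not analysed here. The measurement was ATAC-seq, in which a transposase cuts open chromatin, so that reads pile up where DNA is accessible. The cells were OT-I CD8+ T cells of mouse, which carry a T cell receptor for the ovalbumin peptide OVA257-264, with the genotype given as WT. Both cultures received that peptide for 48 h. One held vehicle and the other held TAMos, which are CD11b+Ly6G-Ly6Chigh cells purified from the spleens of mice bearing LLC tumours (a mouse lung carcinoma line). About 50000 live CD8+ cells were sorted from each culture for 1 library, and the labels do not say how many animals gave cells. There was 1 library per condition, so no difference given below has a replicate check and no test between conditions was possible.

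A ribosome carries a single copy of nearly every one of these proteins, so their genes are transcribed strongly and in concert in growing cells, among them T cells that have met their antigen. Their messages start with a run of pyrimidines, the terminal oligopyrimidine or TOP motif, through which the kinase mTOR and the RNA-binding protein Larp1 set their translation. Most have a single working gene and many silent processed copies. A few have a paralog, a second gene of similar sequence, that is used in particular tissues.

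The promoter sequences are shown first, because the results turn on which promoters were open and which moved most. The bases printed are the 100 upstream of the first annotated start site, from RefSeq on the build GRCm38.p6, which is mm10, on the strand of the gene. Capitals mark motifs searched on both strands: CCGGAAG of ETS and GABP factors, GGGCGG of Sp1 and Klf factors, CCAAT of NF-Y, CACGTG of E-box factors, AAGATGGCG of YY1, GCGCATGCG of NRF1, TCTCGCGAG of Zbtb33-like factors and TATAAA of the TATA box. The first set holds promoters among those with the lowest and highest ratios of the TAMo library to the vehicle library, 4 low ones and then 3 high ones. They are Rps12 (chr10:23787276-23787375, minus strand), Rpl10a (chr17:28328371-28328470, plus strand), Rps15a (chr7:118116189-118116288, minus strand), Rps18 (chr17:33955678-33955777, minus strand), Rps3 (chr7:99483739-99483838, minus strand), Rps6 (chr4:86857413-86857512, minus strand) and Rpl13a (chr7:45128762-45128861, minus strand).
Rps12: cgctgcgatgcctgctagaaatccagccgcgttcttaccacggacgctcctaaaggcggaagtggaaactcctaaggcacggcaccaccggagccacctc
Rpl10a: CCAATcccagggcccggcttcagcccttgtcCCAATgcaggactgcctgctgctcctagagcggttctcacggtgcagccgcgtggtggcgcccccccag
Rps15a: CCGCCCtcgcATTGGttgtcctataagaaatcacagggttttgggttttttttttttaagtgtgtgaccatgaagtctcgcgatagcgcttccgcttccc
Rps18: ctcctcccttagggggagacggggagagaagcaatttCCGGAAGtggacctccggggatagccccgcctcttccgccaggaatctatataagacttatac
Rps3: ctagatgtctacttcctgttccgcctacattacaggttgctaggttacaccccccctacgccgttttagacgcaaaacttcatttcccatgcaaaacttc
Rps6: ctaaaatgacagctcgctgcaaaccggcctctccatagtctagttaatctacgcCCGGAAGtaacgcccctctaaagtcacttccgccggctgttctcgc
Rpl13a: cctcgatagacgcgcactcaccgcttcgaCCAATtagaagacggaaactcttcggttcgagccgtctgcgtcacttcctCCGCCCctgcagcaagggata

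The second set shows paralogs, first 3 without a promoter peak in either library and then 2 with a peak in both. They are Rpl10l (chr12:66284402-66284501, minus strand), Rpl39l (chr16:10170126-10170225, plus strand), Rpl3l (chr17:24732585-24732684, plus strand), Rpl22l1 (chr3:28805336-28805435, plus strand) and Rps27l (chr9:66945986-66946085, plus strand).
Rpl10l: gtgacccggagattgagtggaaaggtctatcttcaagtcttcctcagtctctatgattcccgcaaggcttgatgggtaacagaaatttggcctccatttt
Rpl39l: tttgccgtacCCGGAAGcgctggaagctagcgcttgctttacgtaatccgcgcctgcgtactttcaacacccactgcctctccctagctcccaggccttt
Rpl3l: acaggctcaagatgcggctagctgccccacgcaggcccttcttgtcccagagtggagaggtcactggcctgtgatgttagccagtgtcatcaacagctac
Rpl22l1: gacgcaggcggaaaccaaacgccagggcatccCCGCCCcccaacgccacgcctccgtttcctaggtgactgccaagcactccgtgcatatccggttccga
Rps27l: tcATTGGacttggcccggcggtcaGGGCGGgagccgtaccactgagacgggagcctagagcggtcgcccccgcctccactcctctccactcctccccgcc
Of these promoters, Rps18 (low ratio), Rps6 (high ratio) and Rpl39l (no peak) all carry the ETS and GABP letters.

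The third set gives 21 bases around the RefSeq start site, with the start at base 11 and the longest pyrimidine run in capitals. The first 6 have long runs and the last 3 have short ones. They are Rpl7a (chr2:26910797-26910817, plus strand), Rpl15 (chr14:18270976-18270996, minus strand), Rpl14 (chr9:120571507-120571527, plus strand), Rpl34 (chr3:130730327-130730347, minus strand), Rps18 (chr17:33955655-33955675, minus strand), Rps6 (chr4:86857357-86857377, minus strand), Rps3 (chr7:99483699-99483719, minus strand), Rpl24 (chr16:55966265-55966285, plus strand) and Rpl3l (chr17:24732675-24732695, plus strand).
Rpl7a: CTCTTCTTTCTTTCTCCagca
Rpl15: agaaagCCTTCTTCCTTTCCT
Rpl14: ggCCCTCTCTCTTCTCgctga
Rpl34: CTTTTCCTCTTCCggggacgg
Rps18: cacttccgCTCTCTCTTCCac
Rps6: gaagtcgggCCTCTTTTTCgt
Rps3: aagggTCgccgcgctgcgcgg
Rpl24: gCTgttgctaggaaacagact
Rpl3l: caacagctacagtgCCCCaaa
The run at Rpl7a covered 17 of the 21 bases and that at Rps3 covered 2.

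Nearly all of the genes had an open promoter in both cultures. A peak interval, which is a stretch that the authors' peak caller listed as enriched, lay within 1 kb of a start site in both lists for 72 of the 75 genes (96%, 95% exact Clopper-Pearson interval 88.8 to 99.2). Over all protein-coding genes the count was 13579 of 20807 (65.3%, interval 64.6 to 65.9). These promoters held 128 intervals in the vehicle list and 143 in the TAMo list. No gene had a promoter interval in 1 list only, where 0.865% of all genes had one in the vehicle list only and 3.39% in the TAMo list only. The absence of such genes here is near those shares. The 3 genes without one were Rpl10l, Rpl39l and Rpl3l, all of them paralogs.

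Strength was read as the number of reads covering the strongest summit of the promoter. Over the 72 open promoters the median was 544 reads in vehicle cells and 657.5 reads in TAMo cells. Among all genes with a promoter peak, the median ribosomal protein promoter stood at the 64.1st percentile in vehicle and the 64.0th in TAMo. These promoters were therefore above the middle of all open promoters and not at their top. Their intervals were of ordinary width, at a median of 711 bp in vehicle and 759 bp in TAMo, against 813 bp and 827 bp over all genes. The TAMo library was the deeper one, with a background of 5.80 reads against 4.71 reads in vehicle, which is a ratio of 1.23. Ratios below are on the log2 scale, TAMo over vehicle, after division by these backgrounds. Each carries a 95% exact binomial interval from the reads at both summits, which covers counting error only, since reads copied by PCR are not independent molecules.

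Coverage differed several-fold among these promoters. Rps19 and Rpl15 were among the strongest by the mean of both libraries over background, and Rpl4 and Rpl26 among the weakest. Rpl15, a protein of the large subunit, had 939 reads in vehicle and 1155 in TAMo, and its ratio was -0.00 (-0.13 to 0.12). Rpl26, which lies near the exit of the peptide tunnel, had 282 reads in vehicle and 299 in TAMo, with a ratio of -0.22 (-0.46 to 0.02). Both intervals thus held 0.

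**Figure D1:**
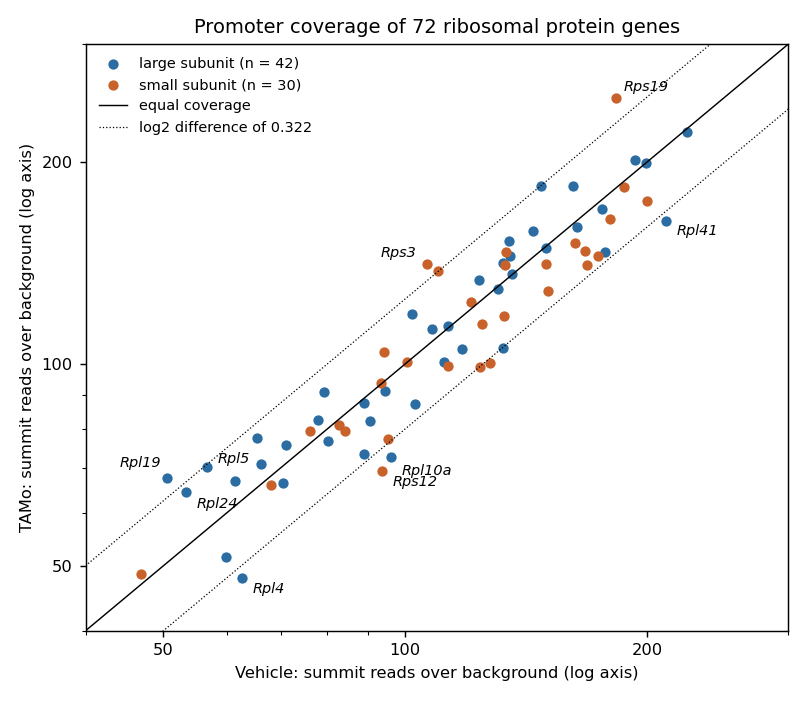
Summit coverage over background at the 72 promoters with a peak in both lists, vehicle on the x axis and TAMo on the y axis, both log axes; each point is a gene, 42 of the large and 30 of the small subunit, the solid line marks equal coverage and the dotted lines a log2 difference of 0.322. Most points lie between the dotted lines, with Rps19, Rps3 and Rpl19 above them (at Rpl19 the 2 intervals do not overlap) and 7 genes below, Rps12, Rpl10a and Rpl4 among them.

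Between the cultures, the promoters as a group stood close to equality. A ratio was taken for the 69 genes whose strongest intervals in the 2 lists overlapped. Its median was -0.03, with quartiles of -0.18 and 0.09 and a range of -0.44 to 0.44. Over the 12948 genes with such a ratio the median was 0.03, with quartiles of -0.13 and 0.22 and a range of -2.15 to 3.98. Of the 69 genes, 39 were below 0. The share nearer to 0 than 0.322 was 87.0% of these genes and 72.3% of all genes.

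A promoter is called lower or higher here where its log2 ratio was at least 0.322 below or above 0. Lower in TAMo were 7 of the 69 (10.1%), where 9.79% of all promoters were. Higher were 2 of the 69 (2.90%), where 17.9% of all promoters were. The lower share was thus near that of all genes and the higher share below it. By counting error, 18 of the 69 had an interval wholly below 0, where 17.5% of all promoters did, and 11 had one wholly above 0, where 26.7% did. Coverage moved with these shares: when all genes were split into 10 classes by coverage, the 2 weakest held none of the 69 and had median ratios of 0.29 and 0.24. Among the 9374 genes in the coverage range of the ribosomal protein genes, 7.86% were called lower and 10.1% higher, with a median of 0.01. The standard deviation over genes was 0.20 for the ribosomal protein genes, 0.31 for genes in their coverage range and 0.45 for all genes.

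**Figure D2:**
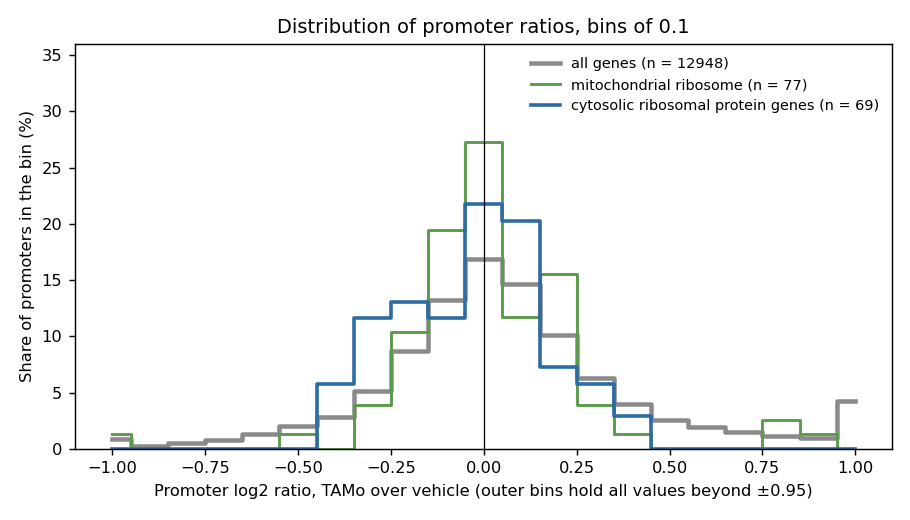
Distribution of promoter log2 ratios, TAMo over vehicle, in bins of 0.1 on the x axis, with the share of promoters in each bin in percent on the y axis, for 69 cytosolic ribosomal protein genes, 77 mitochondrial ribosomal protein genes and 12948 genes in all. The cytosolic genes end at -0.44 and 0.44, while the outer bins, which collect all values beyond the axis, hold promoters of the other groups. The median absolute ratio is 0.14 for the cytosolic genes, 0.11 for the mitochondrial genes and 0.17 for all genes.

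The large subunit genes stood at equality. Their median ratio was -0.00 over 39 genes, with quartiles of -0.15 and 0.10 and a range of -0.40 to 0.32. Called lower were 4 of them (10.3%), Rpl10a, Rpl4, Rpl41 and Rpl21, and none was called higher. Over all promoters these shares were 9.79% and 17.9%. Counting intervals lay below 0 for 7 and above 0 for 8 of the 39, where 17.5% and 26.7% of all promoters did.

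Rpl10a, a protein of the stalk where spent transfer RNA leaves, had 452 reads in vehicle and 422 in TAMo, for a ratio of -0.40 (-0.59 to -0.20). Rpl4, which lines the tunnel for the growing peptide, had 295 and 278 reads, for -0.39 (-0.63 to -0.14). The strongest summit there, at position -490 from the Rpl4 start in vehicle, lay upstream, in a window shared with a start of Zwilch. By the interval nearest to the start the Rpl4 ratio was -0.14, short of the call. Rpl41, the shortest protein of the ribosome, had 995 and 948 reads, for -0.37 (-0.50 to -0.24). That summit lay 1193 bp downstream of the start in vehicle, and with a window of 500 bp around start sites the ratio was -0.30, short of that call. Rpl21 had 623 reads in vehicle and 612 in TAMo, for -0.33 (-0.49 to -0.16). In these 4 the TAMo library, although deeper, had fewer reads at the summit.

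At the other end were genes whose interval lay above 0 although none was called higher. Rpl13a, which is also part of an interferon-controlled complex that silences messages, had 695 reads in vehicle and 1067 in TAMo, for 0.32 (0.18 to 0.46). Rpl5, which carries 5S ribosomal RNA into the large subunit and can bind Mdm2, had 267 and 407 reads, for 0.31 (0.08 to 0.54). Rpl24 had 251 and 374 reads, for 0.28 (0.04 to 0.51). Rpl11, the partner of Rpl5 in both roles, stood at 0.01 (-0.14 to 0.16) with 639 and 791 reads.

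The small subunit genes were on average slightly lower in TAMo. Their median ratio was -0.09 over 30 genes, with quartiles of -0.19 and 0.05 and a range of -0.44 to 0.44. Called lower were 3 (Rps12, Rps15a and Rps18) and higher 2 (Rps19 and Rps3), which is 10% and 6.67%, against 9.79% and 17.9% of all promoters. Counting intervals lay below 0 for 11 and above 0 for 3 of the 30, where 17.5% and 26.7% of all promoters did. The medians of the subunits differed by less than the spread of the genes within either, where the standard deviation was 0.20 for the large and 0.21 for the small.

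Rps12 had the lowest ratio of all 69, with 441 reads in vehicle and 401 in TAMo, for -0.44 (-0.64 to -0.24). Rps15a had 600 and 582 reads, for -0.34 (-0.51 to -0.18), but the intervals nearest to its start did not overlap and gave no ratio. Rps18, in the head of the small subunit, had 584 and 573 reads, for -0.33 (-0.50 to -0.16). Its window also holds a start of Vps52. All 3 had fewer reads in the deeper library, and their summits lay within 4 bp of each other in the 2 libraries.

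Rps19, the gene most often mutated in Diamond-Blackfan anaemia, had the highest ratio, with 863 reads in vehicle and 1443 in TAMo, for 0.44 (0.32 to 0.56). The 1443 reads were the most at any of these promoters in either library. Rps3, which shapes the entry of the messenger RNA channel, had 502 and 817 reads, for 0.40 (0.24 to 0.57). Rps6, the protein that the S6 kinases phosphorylate downstream of mTOR, had 518 and 797 reads, for 0.321 (0.16 to 0.48), just short of the call.

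**Figure D3:**
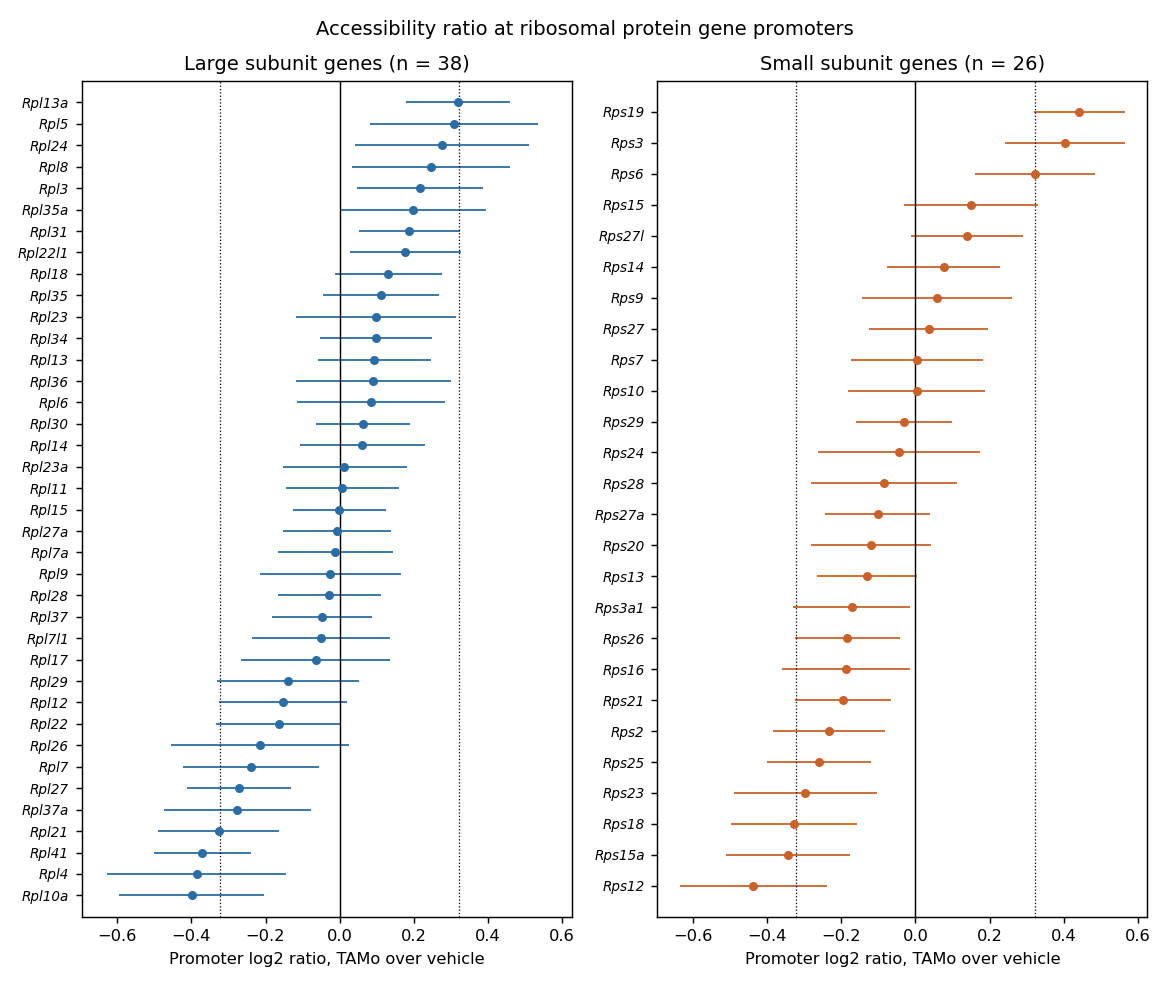
Promoter log2 ratio, TAMo over vehicle, on the x axis for 38 of the 39 large and 26 of the 30 small subunit genes with a ratio (the others are not shown); points are ratios, bars their 95% exact binomial counting intervals, the solid line marks 0 and the dotted lines a log2 difference of 0.322. The lowest gene is Rps12 at -0.44 and the highest Rps19 at 0.44, and the bars of most genes reach or cross 0.

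At Rpl19, Rpl32 and Rpl38 the strongest interval in one list was not the same interval as in the other, so no ratio was taken. Each promoter held neighbouring intervals of similar height. At Rpl19 the vehicle list had summits of 234 reads 69 bp upstream and 238 reads 48 bp downstream of the start, and the TAMo list had 392 reads 66 bp upstream and 343 reads 52 bp downstream. At Rpl32 the 2 main summits had 332 and 318 reads in vehicle and 386 and 385 reads in TAMo. At Rpl38 the summit near the start had 289 reads in vehicle and 333 in TAMo, while one 473 bp downstream of it in vehicle had 216 reads and its TAMo counterpart 388. By the intervals nearest to the start the ratios were 0.23 for Rpl19, -0.08 for Rpl32 and -0.10 for Rpl38. The other pairs gave 0.44 (0.21 to 0.68) upstream at Rpl19, -0.02 (-0.24 to 0.19) at Rpl32 and 0.54 (0.30 to 0.79) downstream at Rpl38. By the limit above, neighbouring summits of Rpl19 and Rpl38 thus differed in their call.

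The position of the summit was close to the start and, where the strongest intervals overlapped, mostly kept between the cultures. It lay within 200 bp of a start site at 68 of 72 promoters in vehicle (94.4%) and at 65 of 72 in TAMo (90.3%), against 72.4% and 68.5% of all promoters with a peak. It was upstream of the start at 54 of 72 in vehicle and 47 of 72 in TAMo. The summits of the 2 libraries were within 50 bp of each other at 64 of the 69 genes with a ratio (92.8%) and at 89.0% of all. A ratio required overlapping intervals, which favours near summits, so these shares are partly set by that choice. At the open promoters left out by it, the strongest summits lay 328 bp (Rpl19), 295 bp (Rpl32) and 526 bp (Rpl38) apart. Among the 69, an exception was Rps23, whose summit was 117 bp upstream in vehicle and 206 bp downstream in TAMo, with 448 and 449 reads. At Rpl35 the summit was 433 bp downstream of the nearest GENCODE start but 60 bp upstream of the RefSeq start.

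The paralogs fell into open and closed ones. Rpl10l is the only one of the 75 with a single exon, the mark of a copy made from a spliced message, and is known from the male germ line, where it stands in for the X-linked Rpl10. It had no promoter interval in either list. Rpl39l, also known from the testis, and Rpl3l, the heart and skeletal muscle paralog of Rpl3, had none either. Rpl3l starts 7569 bp from Rps2, whose own promoter had 710 reads in vehicle and 744 in TAMo. The open ones were Rpl22l1, Rpl7l1 and Rps27l. Rpl22l1, the paralog of Rpl22, had 635 and 884 reads, for a ratio of 0.18 (0.03 to 0.33), and Rpl22 itself, which developing T cells need, had 555 and 610 reads, for -0.16 (-0.33 to 0.00). Rpl7l1 had 444 and 528 reads, for -0.05 (-0.24 to 0.13). Rps27l, a target of the tumour suppressor p53, had 629 and 853 reads, for 0.14 (-0.01 to 0.29). All 69 genes that are not paralogs were open in both lists.

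Peak intervals were few at processed copies outside the rule. Of 266 processed pseudogenes of ribosomal protein genes on chromosomes 1 to 19, 6 were overlapped by an interval (2.26%), 3 of them in both lists. Away from coding starts were 5 of the 6. The share over other pseudogenes was not counted, so whether 2.26% is low for such copies cannot be said. No distal region assigned to the 75 genes lay over such a copy. Of 8 retrogene-like copies annotated as protein-coding under other symbols, 2 had a promoter interval in both lists, 2 in the TAMo list only and 4 in neither. Rpl36al, a working copy of the X-linked Rpl36a, had 861 reads in vehicle and 1045 in TAMo, for a ratio of -0.02 (-0.15 to 0.11). Rpl9-ps6 had 292 and 711 reads, for 0.98 (0.79 to 1.19). Reads of near-identical copies may be assigned to the wrong one, so values of such copies, and the absence of an interval there, are uncertain.

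The genes of the ribosome whose symbols the rule does not match were near equality too. All 6 were open in both lists and none was called lower or higher, with a median of -0.14. The acidic stalk proteins, which recruit the elongation factors, were Rplp0 at -0.09 (764 reads in vehicle and 882 in TAMo), Rplp1 at 0.02 (518 and 647 reads) and Rplp2 at -0.14 (638 and 714 reads). Rpsa of the small subunit was at -0.14 with 455 and 510 reads. Fau, made as a fusion with a ubiquitin-like protein, was at -0.15 with 467 and 518 reads.

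Other parts of the translation machinery had similar medians. Of 21 translation factors and related genes with TOP messages, 2 were called lower and none higher, with a median of -0.04. The lower ones were Eef2, the translocating elongation factor, at -0.54 (-0.76 to -0.33) with 390 reads in vehicle and 330 in TAMo, and Eef1d at -0.35 (-0.51 to -0.19) with 640 and 619 reads. Of 29 ribosome assembly and RNA polymerase I genes with a ratio, 2 were lower and 1 higher, with a median of -0.04. These were Polr1a, the largest subunit of that polymerase, at -0.38 (-0.61 to -0.14), Sbds, which frees the large subunit for joining, at -0.35 (-0.52 to -0.19), and Taf1b at 0.45 (0.19 to 0.71). Among 14 kinases and regulators with a ratio, 1 was lower and 1 higher, with a median of -0.01. Tsc2, an inhibitor of mTOR, was at -0.41 (-0.61 to -0.21). Mdm2, the ubiquitin ligase of p53 that free Rpl5 and Rpl11 bind, was at 0.99 (0.81 to 1.18) with 353 reads in vehicle and 866 in TAMo. Larp1 was at -0.23 (-0.43 to -0.03) and Mtor at 0.04 (-0.08 to 0.17).

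The mitochondrial ribosome, the family most like this one, served for comparison. All 78 of its genes had a promoter interval in both lists. Over 77 ratios the median was -0.00, 2 were called lower and 5 higher, and the standard deviation was 0.25. That spread was wider than the 0.20 of the cytosolic genes, and the ratios ranged from -1.04 to 0.85. By measures less moved by single genes, the mitochondrial genes lay nearer to 0. Their median absolute ratio was 0.11, against 0.14 for the cytosolic genes. The share nearer to 0 than the limit for a call was 90.9% against 87.0%.

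The promoter sequences were described by the motifs they hold. RefSeq windows of 300 bases, 250 before and 50 after the start, matched 56 of the 75 genes, 34 of the large and 22 of the small subunit. For each matched gene the window nearest to a GENCODE start was used. The background was all 32851 promoter windows of that length, without such a choice and whether open in these cells or not. No background of open promoters was made, so the sets compared differ in this. Among those not matched were Rpl3, Rpl7, Rpl8, Rpl17, Rpl21, Rpl23a, Rpl29, Rpl30, Rpl32, Rpl36, Rps14, Rps20, Rps27a and Rps29. The ETS and GABP letters CCGGAAG stood in 23 of 56 windows (41.1%) and in 8.86% of all. GGGCGG of Sp1 and Klf stood in 32 (57.1%) and in 35.7% of all. The letters TCTCGCGAG stood in 6 (10.7%) and in 0.676% of all, and AAGATGGCG of YY1 in 4 (7.14%) and in 1.40% of all. The NRF1 letters GCGCATGCG stood in 2 (3.57% against 1.75%). CACGTG was near the general share, in 5 (8.93% against 7.15%), and the others were rarer than in general, CCAAT in 15 (26.8% against 37.4%) and TATAAA in 3 (5.36% against 13.6%). A match of letters is a description and not a measured binding site, and no p-value was computed for these shares.

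The windows were also rich in CpG, with a median of 21 against 7 in all, while G and C made up 56.8% of bases against 52.7%. A run of at least 8 pyrimidines touching the 21 bases around the start, as at Rpl7a and Rps18 in the sequences above, was found in 25 of 56 (44.6%) and in 14.0% of all promoters. The median longest run was 7 bases against 4. The median ratio was -0.00 over 20 genes with CCGGAAG and -0.03 over 31 without it.

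**Figure D4:**
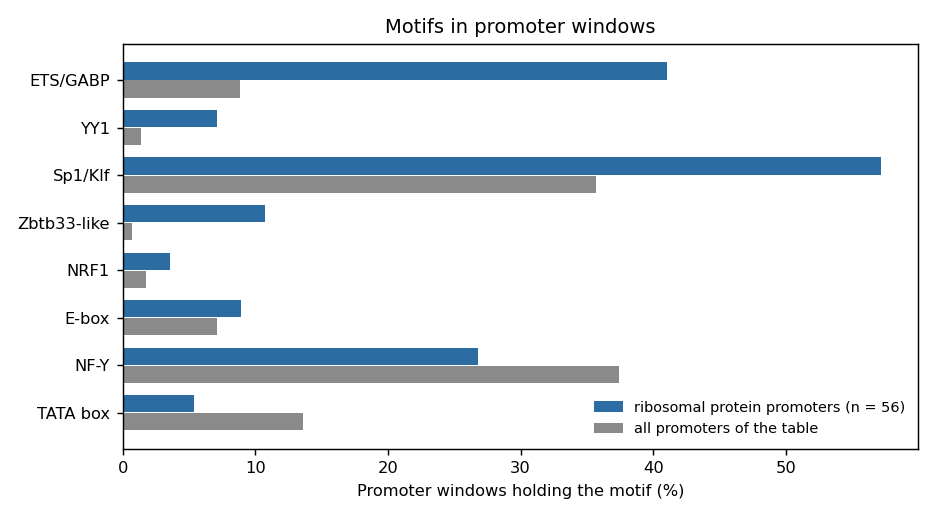
Share of 300-base promoter windows, in percent on the x axis, that hold each searched motif (y axis), for 56 ribosomal protein promoters and for all 32851 promoters. The ETS and GABP bar reaches 41.1% against 8.86%, while CCAAT (NF-Y) and the TATA box are below the level of all promoters.

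Away from promoters the picture was less even. Distal intervals were those not within 1 kb of any protein-coding start whose nearest such start, within 100 kb, belonged to 1 of the 75 genes. There were 296 in the vehicle list, of which 230 overlapped a TAMo interval (77.7%, 72.5 to 82.3), where 86.2% of distal intervals of all genes did. There were 363 in the TAMo list, of which 229 overlapped a vehicle interval (63.1%, 57.9 to 68.1), against 58.4% for all genes. Joined, they made 419 regions near 61 of the genes, with 219 in both lists, 66 in the vehicle list only and 134 in the TAMo list only. Nearness to a start does not show that a region acts on that gene.

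In the 219 shared regions the median ratio was 0.09, with quartiles of -0.38 and 0.66, where it was 0.37 over all distal regions. At least 2-fold higher were 33 (15.1%), where 25.1% of all were. At least 2-fold lower were 6 (2.74%), where 3.42% of all were. Regions of large subunit genes had a median of 0.14 and those of small subunit genes 0.04. Within 10 kb of the start the median was -0.19 over 92 regions, against 0.27 for all genes, and beyond 10 kb it was 0.26 over 127 regions, against 0.41.

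Low values were frequent just past the ends of the genes. The regions were split by position relative to their gene after the values had been seen, so the split is a description. Within 5 kb past the gene end lay 93 regions of 39 genes. Of these, 45 were in both lists, 30 in the vehicle list only (32.3%) and 18 in the TAMo list only (19.4%). For all genes, 10.9% of 6110 such regions were in the vehicle list only and 35.2% in the TAMo list only. The median ratio of the 45 shared regions was -0.36, with quartiles of -0.67 and -0.12, against 0.27 for all genes, and 38 of the 45 were below 0. By the same limit of 0.322, 25 of the 45 were lower (55.6%), where 17.7% of all such regions were, and 3 were higher (6.67%), where 47% were. Intervals lay below 0 for 23 of them and above 0 for 3, a count that was not made for all genes. The other positions had medians of 0.41 (over 5 kb upstream, 73 regions), 0.18 (in the gene body, 14 regions), 0.14 (5 to 20 kb past the end, 40 regions) and 0.28 (further past it, 41 regions). The 6 regions within 5 kb upstream had a median of -0.42 against 0.21 for all genes. Of these, 4 were lower by that limit (66.7%), where 16.4% of all such regions were. The 4 of the large subunit had a median of -0.42 and the 2 of the small subunit 0.15. Low values upstream were also found in the mitochondrial ribosome, with a median of -0.34 over 8 regions and 62.5% lower.

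**Figure D5:**
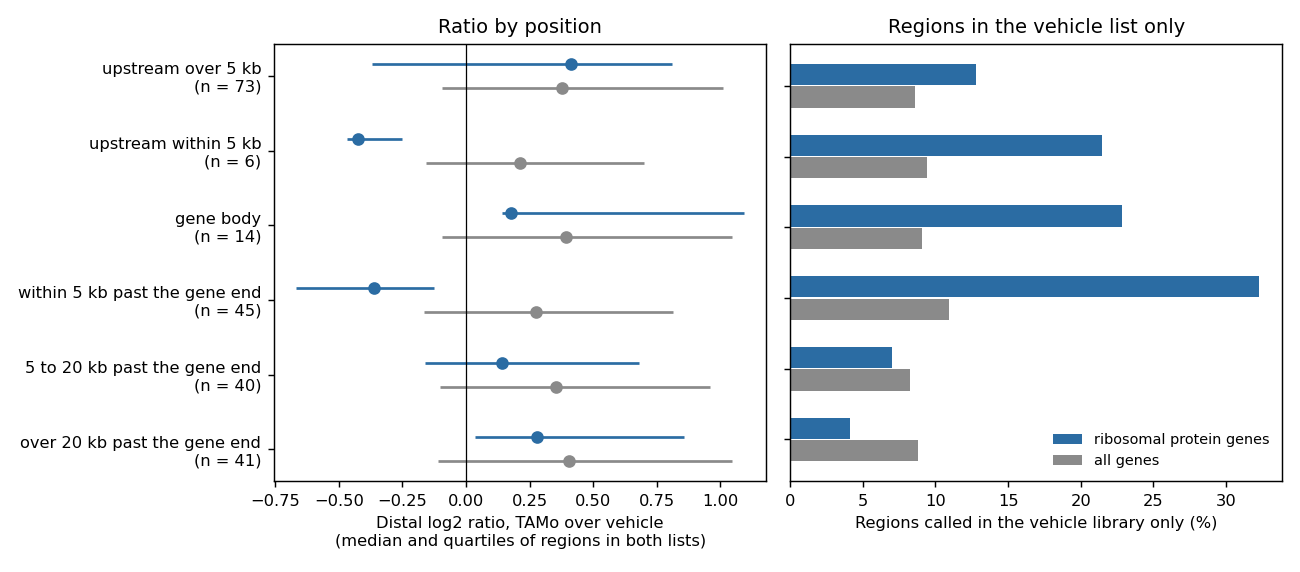
Left, log2 ratio, TAMo over vehicle, on the x axis by position of the distal region relative to its gene, with points for medians and bars for quartiles of regions in both lists, for ribosomal protein genes (number of regions on the axis) and all genes. Right, share of regions in percent called in the vehicle list only. Within 5 kb past the gene end the ribosomal protein genes have a median of -0.36 against 0.27, and 32.3% of their regions are in the vehicle list only against 10.9%.

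The region with the most reads among the clearly lower ones belonged to Rpl3, a core protein of the large subunit's catalytic centre. Its summit lay 1214 bp past the gene end, and the region (chr15:80075791-80077662, intergenic) had 643 reads in vehicle and 360 in TAMo, for -1.14 (-1.33 to -0.95), while the Rpl3 promoter had 481 and 688 reads, for 0.22 (0.05 to 0.39). Past the end of Rpl8 a region had 116 and 60 reads, for -1.251 (-1.73 to -0.79), with the promoter at 0.25 (0.03 to 0.46). Past the end of Rps15a one had 130 and 78 reads, for -1.04 (-1.46 to -0.62). Others were close to equality, as past the end of Rps19 at 0.07 with 305 and 394 reads, and 3 rose: at Rpl19 (0.49, 113 and 196 reads), Rps9 (0.42, 237 and 391 reads) and Rpl6 (0.39, 198 and 320 reads). By gene, the median ratio past the end was below 0 for 26 of 29 genes, and for 23 of the 27 with both values it was below that of the promoter. In those 27 the median was -0.43 past the end and -0.01 at the promoter. These counts by gene were not made for all genes, so how unusual they are cannot be said.

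The regions in the vehicle list only included the strongest such regions of the whole set, past the ends of Rps9 (243 and 237 reads), Rps25 (240 reads) and Rpl10a (211 reads). They must be read against the caller's local background. At the 45 shared regions this background, recovered from the same values, had a median of 34.1 reads in vehicle and 33.2 in TAMo, against 9.62 and 13.2 for all genes and 4.71 and 5.80 across the genome. A region with a high local background is listed only if it rises well above it, so absence from a list there does not show low coverage. Gene length was looked at only together with the presence of a promoter ratio. Among all genes no longer than the median of 3368 bp of these 75 and with a promoter ratio, regions within 5 kb past the end had a median of 0.03, with 26.4% lower and 35.3% higher by that limit. Low values there were also found in the groups nearest in function. The 2 shared regions of genes of the cytosolic ribosome under other symbols were at -1.11 and -0.98, and the 12 of translation factors with TOP messages had a median of -0.19, with 41.7% lower. The mitochondrial ribosome had a median of 0.12 over 24 such regions. The parts of local background, gene length and coverage in the lower values were not tested.

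Single distal regions could rise much further. The highest ratio was in a region 19033 bp from the start of Rpl34, in an intron of Gm42997 (chr3:130748938-130749707), with 24 reads in vehicle and 400 in TAMo, for 3.76 (3.16 to 4.42). Next came 1 near Rps27, in an intron of Nup210l (chr3:90187905-90188369), with 19 and 300 reads, for 3.68 (3.01 to 4.43). A region near Rps23 in an intron of Atg10 had 17 and 229 reads, for 3.45 (2.74 to 4.26). All 3 lie inside other genes, and the ratios at the promoters of Rpl34, Rps27 and Rps23 were 0.10, 0.04 and -0.30. The lowest ratio, -1.50 (-2.10 to -0.93), was in an intergenic region 8293 bp from the start of Rps21 with 85 and 37 reads. Regions in introns had a median of 0.48, those between genes -0.03 and those over exons -0.19.

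The most strongly covered distal regions were shared by both lists. An intergenic region 22064 bp from Rpl3 had 901 reads in vehicle and 1090 in TAMo, for -0.03 (-0.15 to 0.10). One 36621 bp from Rpl11 had 519 and 1095 reads, for 0.78 (0.62 to 0.93). One past Rps28, over an exon of Kank3, had 746 and 753 reads, for -0.29 (-0.43 to -0.14). One near Rps14, in an intron of Ndst1, had 385 and 995 reads, for 1.07 (0.90 to 1.24). In the TAMo list only, the strongest were near Rpl21 with 284 reads, in an intron of Rpl3 with 239 and near Rpl11 with 229.

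The label of the cells was checked against marker genes. All 9 T cell markers, Cd8a, Cd8b1 and the Cd3 genes among them, had a promoter interval in both lists. Of the 2 markers of CD4 T cells, Cd4 had none, while Zbtb7b had one in both lists, with 831 and 1144 reads. Of 10 myeloid markers, 2 had an interval in both lists, 3 in the TAMo list only, 1 in the vehicle list only and 4 in neither. Summed over the list, summit reads were 184 in vehicle and 717 in TAMo. Cd14 had 141 and 411 reads, Spi1 25 and 57, Itgam 118 and Csf1r 100 in TAMo only, and Lyz2, Ly6c2, Ccr2 and Mpo had none. Among B cell markers, Ms4a1 had 26 reads in vehicle and 65 in TAMo, Pax5 had 30 in TAMo only, and Cd79a had none. Signal at the myeloid markers, and at Ms4a1 and Pax5, was thus higher in the TAMo library, and its part in the ratios above was not tested. The whole lists held 127423 intervals in vehicle and 179414 in TAMo, with median summit coverage of 70 and 83 reads. The median ratio over the 103845 regions in both lists was 0.28, so that accessible regions in general were higher in TAMo on this scale than promoters were.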

How the data were processed

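ATAC-seq was run on 1 vehicle and 1 TAMo culture. Tools named by the submitters' processing notes are MACS2, Bowtie2 and Trimmomatic 0.36, with the build mm10. For each tool the settings, and any read shifting or duplicate removal, remain not given in the sources used here. Deposited by the authors was 1 peak list per library, called separately. Per the deposited values, each row holds a score, a fold enrichment over local background (a linear ratio), the −log10 p and −log10 q, and a summit offset.

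Summit coverage in whole reads was recovered from the fold and the −log10 p, which MACS2 forms from coverage and background, within 1% of the step between neighbouring whole numbers. This left out 30 vehicle and 48 TAMo rows. Recovery and intervals were tested on simulated data, made with the formula that recovery inverts and with counting error only. The simulated backgrounds were below the median local backgrounds at these promoters, 42.8 reads in vehicle and 47.4 in TAMo. Recovery at such backgrounds was therefore not covered by it. Each library's most frequent background, 4.71 and 5.80 reads, was taken as depth. Reads at both summits give the intervals printed.

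Genes and start sites came from GENCODE M21 and sequences from RefSeq. Promoters were 1 kb around start sites, overlap was at least 1 bp, and where a promoter had several intervals the strongest was used. No test between conditions was made, with 1 library each. The members and gene lists were chosen with earlier results of these data known. Named genes were the 6 lowest and 6 highest ratios, the 3 strongest and 3 weakest promoters, genes without overlapping intervals, single-exon genes, paralogs, the owners of the strongest distal regions and the 6 fixed genes of the complex with other symbols. Some genes of the rule are not reported singly here. Genes named beyond this rule were chosen after their values were seen. Alternatives changed the window, the peak threshold, the overlap, the scaling, the interval taken and the genes included. Python 3.11.15, numpy 2.4.6, pandas 2.3.3 and scipy 1.17.1 were used.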

Additional observations from a re-analysis of the deposited data

How the results depend on the processing

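With coverage scaled to the median of all shared regions, which lowers every log2 ratio by 0.28, the median promoter ratio was -0.30 for all genes described, -0.28 for the large and -0.37 for the small subunit. Called lower were then 31 of 69 promoters and higher 0, against 7 and 2 as reported, while all promoters with a ratio moved by the same amount. On that scale 36.55% of all promoters were called lower and 8.82% higher. The median distal ratio was -0.18 and the median within 5 kb past gene ends -0.64. No other alternative moved these medians by more than 0.16 or these counts by more than 1.5 times. The 0.16 is the reach to either side of a typical counting interval of a single gene. It is wider than the gap between the subunit medians, so it cannot show that this gap was stable. None of these alternatives turned a direction of a promoter called as lower or higher. With the interval nearest to the start, 4 of the 7 lower promoters remained and Rps25 was newly called lower. Both higher promoters remained, and Rpl30, at 0.06 as reported, was newly called higher at 2.13. Rpl4 at -0.14 and Rpl41 at -0.30 fell short of the call, and Rps15a had no ratio. For regions past gene ends, the other alternatives, chosen after seeing the data, gave medians of -0.41 to -0.29. No paired analysis was possible because each condition had 1 library. The promoter of Rpl26, with 282 reads in vehicle, has an interval of -0.46 to 0.02, so a difference of that size was not detectable at a promoter of so few reads.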
